A study of Homo sapiens with 15 samples.

Results

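The protein-coding genes of the short arm of chromosome 3 (3p) that HEK293T cells expressed were followed in 4 knockout clones and 1 control clone. A gene was taken when it starts at or before 91.5 Mb on chromosome 3 in GENCODE v29 (GRCh38) and reached at least 0.5 FPKM in at least 3 of the 15 libraries. FPKM is the number of sequenced fragments of a gene scaled by its exon length and by the size of the library. This gave 337 of the 506 protein-coding 3p genes, and of the 16175 genes of all kinds and chromosomes that passed the same filter. HEK293T cells are an established line from human embryonic kidney. The groups were Non-target, labelled wild type and transduced with a guide RNA without a target, and the CRISPR knockout (CKO) clones C9orf89-CKO, MAGI2-CKO, MLPH-CKO as well as RHBDD2-CKO, in which Cas9 and a guide from the lentiviral vector lentiCRISPRv2 were directed at the named gene. Every group, Non-target included, carried that vector and was 1 clone grown by limiting dilution. RNA came from 3 wells per group, numbered 1 to 3, so the spread between libraries is that between wells of 1 clone. With 1 Non-target clone, genes lowered in the 4 CKO clones and genes raised in the Non-target clone cannot be told apart. Where 4 values follow each other for the clones, they stand in the order C9orf89, MAGI2, MLPH, RHBDD2.

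The short arm of chromosome 3 is known as a region that is often lost in kidney, lung and other carcinomas. It holds VHL, whose product marks hypoxia-inducible factors for degradation, the chromatin genes PBRM1, BAP1 and SETD2, and the TGF-beta receptor gene TGFBR2. HEK293T cells are known to have an abnormal chromosome number. RNA levels do not count chromosome copies, and no DNA measurement was analysed here.

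The libraries held 15517856 to 19489918 fragments on genes, of which 395476 to 551958 lay on the 337 genes. Of the 169 3p genes under the filter, 39 were listed at 0 in all 15 libraries and 10 reached 0.5 FPKM in 1 or 2 libraries. At the limit, ITGA9 was just inside with 0.504 FPKM in the lowest of its 3 highest libraries, and ACY1 was just outside with 0.494 FPKM. Of the 337 genes, 306 were at 0.5 FPKM or more in all 15 libraries, 5 were so in exactly 3, and 305 had a mean of at least 1 FPKM. Within each group the library numbered 1 stood apart from the other two. A chi-square test gave 14.6 to 24.85 per gene for pairs with library 1 and 2.396 to 6.54 between libraries 2 and 3. Counts of 3p genes past the threshold, or with separated libraries, in all 4 clones are therefore also given for the libraries numbered 2 and 3 alone. Counts by the sign of the difference alone are given for all libraries only.

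The targeted genes lie on other chromosomes. The C9orf89 transcript, listed as CARD19, was at 5.70, 7.71 and 6.27 FPKM in Non-target and at 4.34, 4.27 and 4.34 FPKM in C9orf89-CKO, close to the 4.52 to 5.17 FPKM of RHBDD2-CKO. That of RHBDD2 was at 27.4, 38.1 and 34.9 FPKM in Non-target, at 11.2, 13.5 and 12.4 FPKM in RHBDD2-CKO and also at 11.7, 13.8 and 16.0 FPKM in MAGI2-CKO. MAGI2 was at 0.102 to 0.123 FPKM in Non-target and 0.0523 to 0.0899 FPKM in MAGI2-CKO, and MLPH was listed at 0 in all 15 libraries. Transcript levels thus could not check the labels of the MAGI2 and MLPH clones. CARD19 did not differ past 0.05 between C9orf89-CKO and RHBDD2-CKO (limma adjusted p = 0.320). Nor did RHBDD2 between MAGI2-CKO and RHBDD2-CKO (limma adjusted p = 0.405). These transcripts thus did not single out their own clones either. Of 8 marker genes for HEK293T, vimentin (VIM) was highest, at 40.1 to 48.6 FPKM in Non-target, 42.8 to 50.6 FPKM in RHBDD2-CKO and 59.3 to 87.9 FPKM in the other clones. CDH2, or N-cadherin, was at 22.6 to 24.8 FPKM in Non-target and 14.4 to 16.9 FPKM in all 4 clones. The neurofilament gene NEFM was at 21.4 to 38.4 FPKM in Non-target, 0.957 to 1.89 FPKM in RHBDD2-CKO and 0 to 0.0705 FPKM in MAGI2-CKO, and its partner NEFL was at 16.8 to 20.5 FPKM in Non-target and 0.903 to 1.14 FPKM in RHBDD2-CKO. PTPRC, the defining surface marker of blood cells, had at most 1 fragment in a library. ITGB2, the blood marker with the highest median over all libraries, was at 0.137 to 0.235 FPKM in Non-target, 0.553 to 0.791 FPKM in MAGI2-CKO, 0.390 to 0.441 FPKM in MLPH-CKO, 0.237 to 0.454 FPKM in C9orf89-CKO and 0.170 to 0.335 FPKM in RHBDD2-CKO. Among the mesenchymal markers COL1A2 and THY1 had at most 1 and 3 fragments. The collagen gene COL3A1 was at 1.01 to 1.47 FPKM in Non-target and at most 0.369 FPKM in the clones, while COL1A1 was at 2.24 to 2.66 FPKM in Non-target, 2.60 to 3.79 FPKM in RHBDD2-CKO and 3.33 to 5.42 FPKM in the other clones. LUM was at 0.393 to 0.890 FPKM in Non-target, 0.177 to 0.409 FPKM in RHBDD2-CKO and at most 0.206 FPKM in the other clones. The HEK293T markers summed to 132 to 136 FPKM in Non-target, 143 to 147 FPKM in C9orf89-CKO, 119 to 136 FPKM in MAGI2-CKO, 189 to 194 FPKM in MLPH-CKO and 80.6 to 88.7 FPKM in RHBDD2-CKO. These sums rest mostly on VIM, NEFL, NEFM and CDH2, and single markers did not all follow them. The part of the marker differences in the 3p differences was not tested. Over all libraries the 6 blood markers summed to 0.384 to 1.18 FPKM and the 7 mesenchymal markers to 3.09 to 5.86 FPKM.

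Among the 3p genes, 3 carry sharp differences described further on, and the stretch around the RefSeq start of each is shown because those differences amount to transcript present in some clones and nearly or wholly undetected in others. Each run spans 250 bases before to 50 bases after the gene's start in RefSeq (GRCh38.p14), with every CG in capitals, the dinucleotide at which DNA methylation occurs in promoters. STAC (chr3:36380254-36380553, plus strand), which encodes an adaptor of calcium channels, had fragments in Non-target and almost none in any CKO clone. TGFBR2 (chr3:30606106-30606405, plus strand) was lower in 3 clones and nearly undetected in RHBDD2-CKO. C3orf18 (chr3:50567698-50567997, minus strand), whose role is not well known, was nearly undetected in RHBDD2-CKO alone.
STAC: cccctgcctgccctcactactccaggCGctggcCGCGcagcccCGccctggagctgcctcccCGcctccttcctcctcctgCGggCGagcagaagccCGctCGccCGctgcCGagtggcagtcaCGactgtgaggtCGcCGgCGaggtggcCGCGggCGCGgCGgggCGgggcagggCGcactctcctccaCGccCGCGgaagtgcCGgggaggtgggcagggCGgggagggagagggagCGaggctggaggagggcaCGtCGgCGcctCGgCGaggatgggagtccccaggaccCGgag
TGFBR2: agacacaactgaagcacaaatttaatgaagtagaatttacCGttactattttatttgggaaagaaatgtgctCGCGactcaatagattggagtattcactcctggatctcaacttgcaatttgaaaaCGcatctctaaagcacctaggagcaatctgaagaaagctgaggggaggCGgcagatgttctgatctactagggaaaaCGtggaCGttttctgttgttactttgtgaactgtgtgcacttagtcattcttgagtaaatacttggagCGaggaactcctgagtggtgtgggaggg
C3orf18: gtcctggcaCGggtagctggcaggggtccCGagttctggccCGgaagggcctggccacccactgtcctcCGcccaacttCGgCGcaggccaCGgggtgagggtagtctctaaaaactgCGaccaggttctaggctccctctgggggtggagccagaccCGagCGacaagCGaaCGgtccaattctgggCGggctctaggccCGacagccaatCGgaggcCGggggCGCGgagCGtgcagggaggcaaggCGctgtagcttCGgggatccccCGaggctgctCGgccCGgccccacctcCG
The window of STAC holds 34 CG and that of C3orf18 holds 25, while that of TGFBR2 holds 8. The GENCODE gene models behind the FPKM values can start elsewhere. The start of STAC lies inside its window, while that of TGFBR2 lies 97 bases and that of C3orf18 3030 bases outside. RefSeq windows were matched by symbol for 289 of the 337 genes, 182 of them with the GENCODE start inside. Their median was 28 CG, against 27 in 9242 windows of the other tested protein-coding genes. At least 10 CG were found in 91.7% of the 3p windows and in 91.1% of the others. These letters are a description of the windows, and methylation was not measured here.

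Most 3p genes were somewhat lower in every CKO clone than in Non-target. The median log2 difference over the 337 genes, on the scale of log2(FPKM + 0.1), was -0.36, -0.37, -0.33 and -0.25 in the 4 clones. This corresponds to a level 22.1%, 22.7%, 20.5% and 16.1% below Non-target. Over 11694 protein-coding genes of other chromosomes the medians were -0.00, -0.03, -0.02 and -0.00. Over the 344 genes of the long arm (3q) they were -0.07, -0.10, -0.07 and -0.20. The 3p genes were proposed because of this shift, so it is given as a description. Across single libraries the median over the 3p genes was -0.00718 to 0.00978 in Non-target. It was -0.390 to -0.330 in the C9orf89 clone, -0.360 to -0.345 in the MAGI2 clone, -0.337 to -0.311 in the MLPH clone and -0.270 to -0.245 in the RHBDD2 clone. No clone library overlapped with Non-target, and all RHBDD2-CKO libraries lay above all libraries of the other clones.

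The share of all protein-coding FPKM that came from the 337 genes was 2.70% ± 0.104 (SD, n = 3) in Non-target. It was 2.19% ± 0.116, 2.13% ± 0.0685, 2.12% ± 0.0188 and 2.31% ± 0.0265 in the 4 clones. The highest share in a clone library, 2.32%, was below the lowest in a Non-target library, 2.58%. In bulk RNA, fewer cells with a transcript and less transcript per cell cannot be told apart.

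With limma and Benjamini-Hochberg adjustment over all 16175 genes, 194 of the 337 genes were past the threshold of 0.05 and lower in C9orf89-CKO, where 13.1% of all genes tested were. In MAGI2-CKO there were 203 (19.1% of all genes), in MLPH-CKO 183 (15.5%) and in RHBDD2-CKO 149 (16.7%). Past the threshold and higher were 7, 12, 6 and 12 of the 337 genes, where 12.9%, 17%, 14.5% and 17.4% of all genes were. All 4 comparisons use the same 3 Non-target libraries, and the 3p genes were chosen on these contrasts, so nothing is read from the counts. Lower past the threshold in all 4 clones were 84 of the 337 genes (24.9%), where 3.26% of all genes were. No 3p gene was higher past the threshold in all 4 clones, where 3.39% of all genes were. In 112 genes (33.2%) all 12 clone libraries lay below all 3 Non-target libraries, where 5.26% of all genes did, and in none did they all lie above, where 4.54% did. With the libraries numbered 2 and 3 alone, 107 genes were lower past the threshold in all 4 clones (5.02% of all genes) and 0 were higher (4.09%). In those 10 libraries, all 8 clone libraries lay below both Non-target libraries in 177 of the 337 genes (12.7% of all genes) and above both in 4 (10.2%).

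The shift was seen at every level of expression and was most uniform in strongly expressed genes. When the 3p genes were split into 3 groups by mean level, the median log2 differences of the highest group, at 10.8 to 649.7 FPKM, were -0.38, -0.38, -0.33 and -0.33. Of these 113 genes 98.2%, 95.6%, 95.6% and 92.0% were below Non-target. In the group with the lowest means, 0.144 to 3.93 FPKM, the medians were -0.36, -0.35, -0.28 and -0.15, and 81.2%, 72.3%, 75% and 65.2% of the 112 genes were below Non-target. The 82 non-coding 3p genes past the filter had medians of -0.15, -0.03, 0.02 and 0.00, against 0.07, 0.27, 0.14 and 0.09 for 3625 non-coding genes of other chromosomes. Their quartiles were wider, from -0.57 to 0.21 in C9orf89-CKO, where those of the 3p protein-coding genes were -0.53 and -0.21.

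Along the chromosome the lowering ran through most of the arm. It was followed with a running median over 25 neighbouring protein-coding genes of chromosome 3, and a window was called lowered at 0.5 times the clone's own median or below. The limits were -0.18, -0.19, -0.17 and -0.13. Of the 325 windows centred on a 3p gene, 100%, 90.2%, 96.9% and 95.4% were lowered in the 4 clones. By single library 100% were lowered throughout C9orf89-CKO and 86.2% to 94.2% in MAGI2-CKO. In MLPH-CKO they were 92.6% to 100%, and in RHBDD2-CKO 87.1% to 89.2%. The first window that 25 genes allow, centred on the chromatin gene SETD5 (start at 9397615), was lowered in all 4 clones. No window is centred nearer the end of the arm, so the method could not find an edge there. The first gene past the filter, TRNT1 (start at 3126916), which adds the CCA end to transfer RNAs, was at 3.50, 3.39 and 3.37 FPKM in Non-target. Its 12 values in the clones were between 2.01 and 2.82 FPKM and did not overlap with those. TRNT1 shares bases with its neighbour CRBN on the other strand, and whether counting used the strand is not given in the sources used here.

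The lowered stretch did not end at the arm's boundary in 3 of the clones. In C9orf89-CKO it ran on into 3q to the window centred on ARHGAP31 (start at 119294373), in MLPH-CKO to TMEM39A (119429500) and in MAGI2-CKO to CCDC191 (113964137). By single library the end was at 105.4, 115.6 and 119.4 Mb in C9orf89-CKO, at 113.7, 119.2 and 114.0 Mb in MAGI2-CKO and at 119.4, 119.5 and 119.4 Mb in MLPH-CKO. Without Non-target replicate 1 the end in C9orf89-CKO was at 113.2 Mb. The libraries of C9orf89-CKO thus spanned the ends of MAGI2-CKO and reached those of MLPH-CKO, and each MAGI2-CKO library ended before each MLPH-CKO library. In RHBDD2-CKO the stretch ended before the boundary, at the window centred on ZNF717 (75678660), and at 71.0, 81.5 and 73.4 Mb by single library. Each of these libraries ended below each library of the other clones.

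In steps of 10 Mb the medians of the 3p genes were between -0.41 and -0.30 in the C9orf89 clone, between -0.49 and -0.26 in the MAGI2 clone, between -0.51 and -0.30 in the MLPH clone and between -0.35 and -0.14 in the RHBDD2 clone. Between 90 and 110 Mb the medians of the first 3 clones were still between -0.35 and -0.27, while RHBDD2-CKO stood at 0.19 and 0.27. Between 120 and 170 Mb the first 3 clones were between -0.12 and 0.01, while RHBDD2-CKO was between -0.60 and -0.44.

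Short gaps interrupted the stretch within 3p. In MAGI2-CKO 27 windows in a row, from BSN (49554489) to CACNA2D2 (50362799), were above the limit, with a highest value of -0.10 at SEMA3F. In MLPH-CKO 8 windows from SEMA3F (50155045) to HYAL2 (50317790) were above it. In RHBDD2-CKO 3 windows from FAM198A (42979267) to SNRK (43286512) were above it, at -0.07. Gaps of 1 or 2 windows lay elsewhere. These started at CELSR3, CISH and DCAF1 in MAGI2-CKO, at NPRL2 in MLPH-CKO and at WNT5A, PDE12 and ABHD6 in RHBDD2-CKO. The window values in these gaps were still below 0, and C9orf89-CKO had no gap.

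Clones were also compared with each other. These differences do not take the Non-target mean, but they come from the same fit, in which all 15 libraries share 1 estimate of the spread. C9orf89-CKO and MLPH-CKO differed past the threshold in 23 genes lower and 15 higher (6.63% and 7.61% of all genes), and the median difference was -0.03. This count of 38 was 17 with only the 6 libraries compared, 77 with a block for the replicate number and 21 without C9orf89-CKO replicate 3, so no order of the pairs is read from it. C9orf89-CKO was lower than MAGI2-CKO in 29 of the 337 genes and higher in 38 (9.76% and 12.7%), and MAGI2-CKO was lower than MLPH-CKO in 40 and higher in 22 (11.8% and 9.4%). The first of these counts, 67 in all, was 108 with a block for the replicate number and 110 with the libraries numbered 2 and 3 alone. The second, 62 in all, was 40 with only the 6 libraries compared and 41 without MAGI2-CKO replicate 2. Against RHBDD2-CKO more 3p genes were lower than higher in each of the 3 other clones. C9orf89-CKO was lower in 77 3p genes and higher in 35 (14.3% and 15% of all genes). MAGI2-CKO was lower in 109 and higher in 50 (21.5% and 20%), and MLPH-CKO was lower in 79 and higher in 46 (18.7% and 18.4%). The median differences to RHBDD2-CKO were -0.08, -0.09 and -0.05. Past the threshold against each of the 3 other clones, 46 genes were higher (13.6%) and 19 lower (5.64%) in RHBDD2-CKO, where 8.52% and 8.96% of all genes were. The MAGI2 clone stood apart in this way in 7 genes higher and 13 lower (2.63% and 5.78% of all genes), the C9orf89 clone in 2 and 6 (1.11% and 1.21%) and the MLPH clone in 2 and 3 (1.24% and 2.57%). With the libraries numbered 2 and 3 alone, 41 genes were higher (12.2%) and 21 lower (6.23%) in RHBDD2-CKO than in each other clone, where 8.38% and 10.2% of all genes were.

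Along the arm, the genes higher in RHBDD2-CKO than in each other clone (8.52% of all genes) were 6 of 26 below 10 Mb, 8 of 44 between 10 and 20 Mb, 3 of 16 between 20 and 30 Mb, 1 of 38 between 30 and 40 Mb and 17 of 96 between 40 and 50 Mb. They were 6 of 81 between 50 and 60 Mb, 0 of 16 between 60 and 70 Mb, 2 of 13 between 70 and 80 Mb and 3 of 7 between 80 and 90 Mb. Beyond the boundary they were 10 of 13 between 90 and 100 Mb and 14 of 21 between 100 and 110 Mb. In 3p, 6 of 38 genes between 30 and 40 Mb were lower in RHBDD2-CKO than in each other clone (8.96% of all genes were). So were 6 of 96 between 40 and 50 Mb, 4 of 81 between 50 and 60 Mb and at most 1 in each other step. Between 130 and 140 Mb 0 of 36 genes were higher and 24 were lower in RHBDD2-CKO than in each other clone (8.96% of all genes were lower). The last 3p gene past the filter, the ephrin receptor gene EPHA3 (start at 89107524), was at 3.46 to 4.02 FPKM in Non-target and 3.74 to 3.79 FPKM in RHBDD2-CKO. It was at 2.40 to 2.73 FPKM in C9orf89-CKO, 2.46 to 2.54 FPKM in MAGI2-CKO and 2.96 to 3.41 FPKM in MLPH-CKO.

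Against this shallow shift, a handful of genes were nearly or wholly undetected. Those described here with at least 10 fragments in each Non-target library and at most 6 fragments over the 3 libraries of a clone are STAC, TGFBR2 and ZNF502, a selection made after their values were seen. STAC (ENSG00000144681, chr3:36380344-36548007, plus strand) had 44, 50 and 61 fragments in Non-target. It had 1 fragment in 1 library of C9orf89-CKO and 0 in the 11 other clone libraries. In FPKM this was 0.624, 0.735 and 0.791 against at most 0.0138.

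TGFBR2 (ENSG00000163513, chr3:30606502-30694142, plus strand), which encodes the type II receptor of TGF-beta, was at 3.69, 3.68 and 3.80 FPKM in Non-target. It was at 1.31, 1.22 and 1.47 FPKM in C9orf89-CKO, at 0.799, 0.921 and 0.850 FPKM in MAGI2-CKO and at 1.22, 1.53 and 1.51 FPKM in MLPH-CKO. RHBDD2-CKO held 0, 2 and 1 fragments, or 0 to 0.0251 FPKM. Thus 3 clones kept an intermediate level and RHBDD2-CKO kept almost none. The 3 clones were higher than RHBDD2-CKO by 3.67, 3.09 and 3.75 on the log2 scale (SE 0.13 each, limma adjusted p = 1.01e-09, 3.62e-09 and 7.48e-10), values that depend on the pseudocount because RHBDD2-CKO was near 0. One of the rules that named TGFBR2 required that it pass the threshold in these comparisons, so nothing is read from these p-values. MAGI2-CKO was below C9orf89-CKO (limma adjusted p = 0.00729) and below MLPH-CKO (0.00318).

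C3orf18 (ENSG00000088543, chr3:50558025-50571027, minus strand) was above Non-target on average in 3 clones and nearly undetected in RHBDD2-CKO. It was at 1.94, 1.95 and 1.82 FPKM in Non-target, 2.27 to 2.54 FPKM in C9orf89-CKO, 2.39 to 3.03 FPKM in MAGI2-CKO and 1.91 to 2.62 FPKM in MLPH-CKO. In RHBDD2-CKO it was at 0.119, 0.145 and 0.0946 FPKM, from 7, 8 and 5 fragments. Its start overlaps HEMK1 on the other strand, which was at 1.23 to 1.42 FPKM in RHBDD2-CKO and 1.08 to 1.25 FPKM in Non-target. MYD88, the adaptor of Toll-like receptors, named after its values were seen, had 8, 7 and 9 fragments in RHBDD2-CKO and 127 to 212 in every other library. Its level in RHBDD2-CKO was 0.104 to 0.139 FPKM, against 1.64 to 3.03 FPKM elsewhere.

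A run of zinc finger genes with starts from 44584888 to 44729596, also named after its values were seen, split the clones within a short distance. ZNF197 and ZNF35 are neighbours on the plus strand. ZNF35 was at 4.87, 3.88 and 3.96 FPKM in Non-target and at 5.54, 5.28 and 5.12 FPKM in RHBDD2-CKO, but at 1.5 to 1.87 FPKM in C9orf89-CKO, 0.523 to 0.616 FPKM in MAGI2-CKO and 0.419 to 0.778 FPKM in MLPH-CKO. ZNF197 was at 3.26 to 3.45 FPKM in Non-target, 3.51 to 4.65 FPKM in RHBDD2-CKO and 0.745 to 1.67 FPKM in the other clones. Both were lower in the 3 clones than in RHBDD2-CKO, ZNF35 by -1.60, -3.0 and -3.05 on the log2 scale (SE 0.17 each, limma adjusted p = 1.3e-05, 3.35e-08 and 3.69e-08). The next gene along, ZNF502, went the other way, with 0 fragments in each RHBDD2-CKO library, 9 to 18 in the other clone libraries and 35 to 47 in Non-target. Nearby ZNF501 was at 1.32 to 1.67 FPKM in Non-target and at 0.501 to 1.42 FPKM in the clones, and KIAA1143, at 9.79 to 13.0 FPKM in all libraries, did not pass the threshold between any of the 3 clones and RHBDD2-CKO (limma adjusted p = 0.525, 0.0607 and 0.316). KIF15, a mitotic kinesin gene and the next past the filter, was at 11.2 to 12.1 FPKM in Non-target and 5.15 to 8.20 FPKM in the clones, with RHBDD2-CKO the highest of these at 7.76 to 8.20 FPKM.

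**Figure D1:**
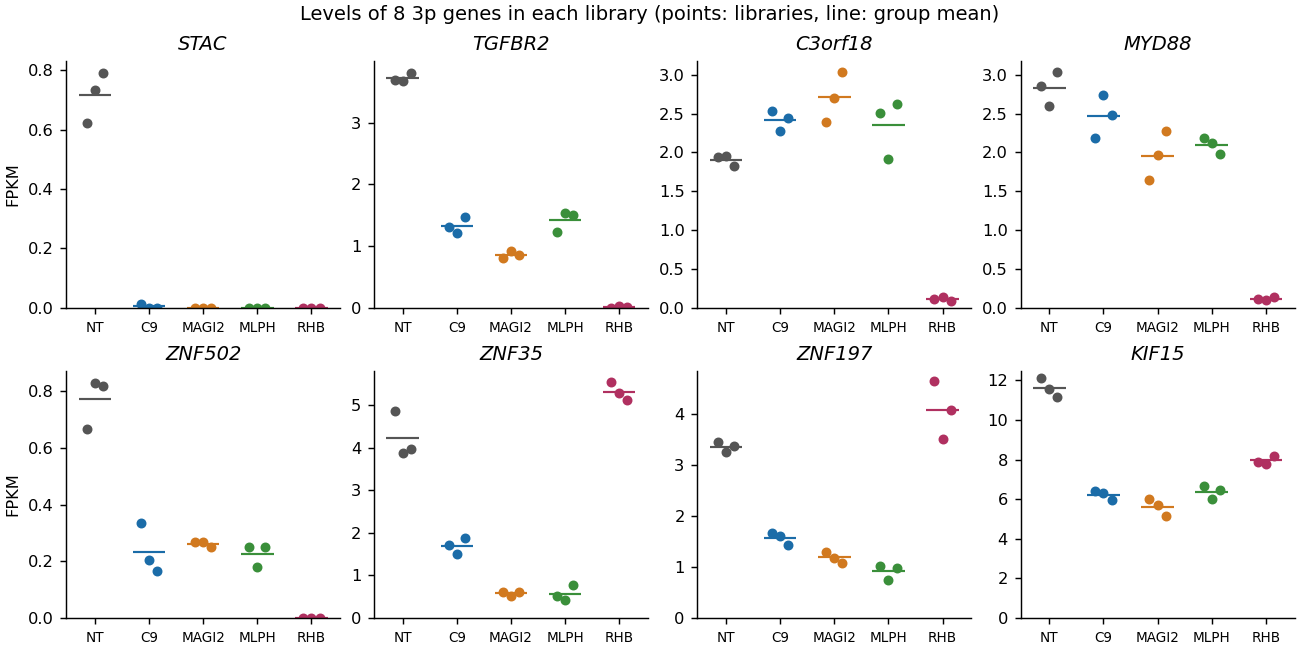
FPKM of 8 3p genes in each of the 15 libraries, with 3 points and a line for the mean per group (NT, Non-target; C9, C9orf89-CKO; MAGI2, MAGI2-CKO; MLPH, MLPH-CKO; RHB, RHBDD2-CKO), each panel on its own axis from 0. STAC is at or near 0 in all 12 clone libraries, TGFBR2, C3orf18, MYD88 and ZNF502 are at or near 0 in RHBDD2-CKO, ZNF35 and ZNF197 are lowered in 3 clones and not in RHBDD2-CKO, and KIF15 is below Non-target in all 12 clone libraries.

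Beyond these, 8 genes were named by a rule as the most lowered, with all 12 clone libraries below all Non-target libraries and a mean of at least 1 FPKM. They were TGFBR2, RFTN1, RARB, KIF15, IL17RD, OXNAD1, PPARG and CSPG5. All passed the threshold in every clone, which the choice of genes on these contrasts largely fixed. RARB in C9orf89-CKO did not pass without replicate 1 or 2 of Non-target or of C9orf89-CKO (limma adjusted p = 0.0604 to 0.0964). IL17RD in RHBDD2-CKO did not pass without any 1 of the Non-target libraries or without RHBDD2-CKO replicate 2 or 3 (limma adjusted p = 0.0695 to 0.128). RFTN1, which encodes a lipid raft protein, was at 1.68 to 2.10 FPKM in Non-target, 0.659 to 0.779 FPKM in C9orf89-CKO, 0.493 to 0.733 FPKM in MAGI2-CKO, 0.674 to 0.952 FPKM in MLPH-CKO and 1.04 to 1.16 FPKM in RHBDD2-CKO. OXNAD1, which overlaps RFTN1 on the other strand, was at 4.32 to 4.86 FPKM in Non-target and 2.36 to 3.03 FPKM in the clones. PPARG, the nuclear receptor of fat cell differentiation, was at 6.70 to 7.48 FPKM in Non-target and 2.92 to 5.05 FPKM in the clones. IL17RD, an inhibitor of fibroblast growth factor signalling, went from 2.40 to 2.55 FPKM in Non-target to a mean of 0.947 FPKM in MAGI2-CKO and 1.91 FPKM in RHBDD2-CKO. CSPG5, a chondroitin sulfate proteoglycan gene, was at 9.62 to 12.9 FPKM in Non-target and 4.84 to 8.70 FPKM in the clones.

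MAGI2-CKO was set apart by RARB, SATB1 and PROK2. RARB, a retinoic acid receptor gene, was at 4.22 to 4.51 FPKM in Non-target, 3.31 to 3.88 FPKM in C9orf89-CKO, 2.70 to 3.11 FPKM in MLPH-CKO, 2.33 to 2.71 FPKM in RHBDD2-CKO and 0.961 to 1.03 FPKM in MAGI2-CKO. SATB1, which organises chromatin loops, was at 2.95 to 3.11 FPKM in Non-target and 2.95 to 3.45 FPKM in RHBDD2-CKO, but at 0.638 to 0.757 FPKM in MAGI2-CKO. C9orf89-CKO, at 1.68 to 1.72 FPKM, and MLPH-CKO, at 2.09 to 2.42 FPKM, lay between these levels. MAGI2-CKO was below RHBDD2-CKO in SATB1 by -2.01 on the log2 scale (SE 0.09, limma adjusted p = 4.39e-09). The difference was -1.53 for MAGI2-CKO minus MLPH-CKO and 1.16 for C9orf89-CKO minus MAGI2-CKO. SATB1 was named because it passed the threshold against each other clone, so nothing is read from the p-value. PROK2, a secreted prokineticin, was likewise lowest in MAGI2-CKO, at 0.381 to 0.768 FPKM against 1.69 to 2.73 FPKM in the other clones. In MLPH-CKO 2 genes were higher than in each other clone. These were HACL1, an enzyme of fatty acid oxidation, at 12.5 to 14.4 FPKM against 7.04 to 10.2 FPKM, and QARS, the glutaminyl-tRNA synthetase gene, at 66.9 to 68.6 FPKM against 39.5 to 59.5 FPKM. For HACL1 the comparison of MLPH-CKO with C9orf89-CKO did not pass when only their 6 libraries were fitted (limma adjusted p = 0.0614).

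The known tumour suppressor and chromatin genes of the arm differed among themselves. BAP1, a deubiquitinase gene, was at 48.0 to 59.3 FPKM in Non-target and 36.5 to 45.1 FPKM in the clones, with no overlap. RASSF1 was at 7.63 to 9.59 FPKM in Non-target and 5.04 to 8.37 FPKM in the clones, and 1 RHBDD2-CKO library overlapped with Non-target. PBRM1, a subunit of the PBAF chromatin remodeller, was at 10.8 to 14.4 FPKM in Non-target, 7.97 to 8.55 FPKM in C9orf89-CKO and 12 to 13.9 FPKM in RHBDD2-CKO. PBRM1 shares bases with SMIM4 on the other strand. SETD2, a histone H3 lysine methyltransferase gene, was at 8.33 to 11.3 FPKM in Non-target and 11.2 to 12.2 FPKM in RHBDD2-CKO, and at 7.55 to 9.27 FPKM in the other clones. VHL was at 32.7 to 40.0 FPKM in Non-target and overlapped with it in 3 clones, at 29.6 to 38.8 FPKM, while RHBDD2-CKO, at 29.7 to 32.5 FPKM, lay below. Its log2 differences were -0.12, -0.03, -0.16 and -0.21 (SE 0.09 each), and none passed the threshold (limma adjusted p = 0.405, 0.830, 0.245 and 0.0998). FHIT, a diadenosine triphosphate hydrolase gene, was at 0.677 to 0.796 FPKM in Non-target and overlapped with it in 3 clones, at 0.541 to 0.838 FPKM. In RHBDD2-CKO it lay below, at 0.350 to 0.662 FPKM, and did not pass (limma adjusted p = 0.108).

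In a list of 21 measured tumour suppressor and chromatin genes, 11, 12, 14 and 5 were lower past the threshold in the 4 clones and 0, 0, 0 and 1 higher, with medians of -0.28, -0.31, -0.32 and -0.20. Lower past the threshold 13.1%, 19.1%, 15.5% and 16.7% of all genes were, and 57.6%, 60.2%, 54.3% and 44.2% of the 337 3p genes. Higher past the threshold were 12.9%, 17%, 14.5% and 17.4% of all genes. The same shares of all genes apply to the lists that follow. The lists hold 3p genes, which were chosen on these contrasts, so nothing is read from their counts. Of 11 DNA repair and replication genes 7, 6, 5 and 6 were lower (where 13.1%, 19.1%, 15.5% and 16.7% of all genes were) and 0 higher. These include FANCD2 of the Fanconi pathway, at -0.43, -0.33, -0.26 and -0.12 on the log2 scale, and the ubiquitin ligase gene RAD18, at -0.31, -0.50, -0.34 and -0.28.

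Of 25 signalling genes 16, 16, 14 and 12 were lower (where 13.1%, 19.1%, 15.5% and 16.7% of all genes were) and 0, 4, 1 and 1 higher. CTNNB1, which encodes beta-catenin, was at 48.1 to 49.6 FPKM in Non-target, 32.3 to 33.3 FPKM in MAGI2-CKO and 33.7 to 44.7 FPKM in the other clones. RHOA, a small GTPase gene and one of the most abundant genes of the arm, was at 236 to 248 FPKM in Non-target and 197 to 230 FPKM in the clones. With quantile normalization RHOA was at -0.04, -0.22, 0.03 and -0.01 on the log2 scale in place of -0.17, -0.28, -0.12 and -0.21, and passed the threshold in no clone (limma adjusted p = 0.0576 to 0.962).

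Of 20 mitochondrial and metabolic genes 15, 14, 16 and 15 were lower (where 13.1%, 19.1%, 15.5% and 16.7% of all genes were) and 0 higher, with medians of -0.40, -0.36, -0.38 and -0.47. UQCRC1, a subunit of respiratory complex III, was at 93.8 to 118 FPKM in Non-target and 60.8 to 81.4 FPKM in the clones. PDHB, a subunit of pyruvate dehydrogenase, was at 31.4 to 32.7 and 18.7 to 26.1 FPKM, and ACAA1, a peroxisomal thiolase gene, at 5.76 to 6.11 and 3.61 to 4.97 FPKM. None of these 3 genes overlapped between Non-target and the clones. OXSM, an enzyme of mitochondrial fatty acid synthesis, was at 6.96 to 7.86 FPKM in Non-target and 5.32 to 6.28 FPKM in 3 clones, while RHBDD2-CKO, at 7.15 to 7.89 FPKM, overlapped with Non-target.

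Of 12 translation genes 7, 8, 6 and 10 were lower (where 13.1%, 19.1%, 15.5% and 16.7% of all genes were) and 0, 0, 1 and 0 higher. They hold the most abundant gene of the arm, RPL29, a ribosomal protein gene at 773 to 851 FPKM in Non-target and 437 to 704 FPKM in the clones. RPSA was at 544 to 650 FPKM in Non-target and 403 to 530 FPKM in the clones, RPL32 at 293 to 316 and 172 to 256 FPKM, and RPL15 at 257 to 278 and 157 to 225 FPKM. With quantile normalization the log2 difference of RPL29 in RHBDD2-CKO was -0.19 in place of -0.53 (limma adjusted p = 0.114), that of RPSA was -0.36 in place of -0.56 (0.0855) and that of RPL32 was -0.28 in place of -0.50 (0.0274). The 5 ribosomal protein genes of 3p had median log2 differences of -0.35, -0.32, -0.48 and -0.53. The 72 ribosomal protein genes outside chromosome 3 had medians of -0.09, 0.04, -0.04 and -0.29. Of these 72 genes 16 (22.2%) were lower past the threshold in RHBDD2-CKO and 4 higher, where 16.7% and 17.4% of all genes were. IMPDH2, of guanine nucleotide synthesis, was at 165 to 169 FPKM in Non-target, 116 to 126 FPKM in RHBDD2-CKO and 166 to 172 FPKM in MAGI2-CKO.

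Of 14 ubiquitin and proteasome genes 8, 12, 9 and 5 were lower, of 19 vesicle, cytoskeleton and secretory genes 8, 12, 9 and 7, and of 6 cell division genes 5, 6, 4 and 2 (where 13.1%, 19.1%, 15.5% and 16.7% of all genes were), with 0 higher in each. The 3 CMTM genes, which encode transmembrane proteins with a MARVEL domain, lie side by side. CMTM6, a stabiliser of PD-L1, was at 26.3 to 30.0 FPKM in Non-target and 17.4 to 27.2 FPKM in the clones, and CMTM7 at 8.37 to 9.64 and 5.25 to 7.67 FPKM. CMTM6 overlapped with Non-target in 1 RHBDD2-CKO library. Over all 129 list genes 77, 87, 77 and 61 were lower (where 13.1%, 19.1%, 15.5% and 16.7% of all genes were). Higher were 0, 4, 2 and 2, where 12.9%, 17%, 14.5% and 17.4% of all genes were.

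Genes of other chromosomes whose products work with 3p products were set beside these. Of 36 such partners 22.2%, 33.3%, 25% and 30.6% were lower past the threshold (8, 12, 9 and 11 genes, where 13.1%, 19.1%, 15.5% and 16.7% of all genes were). Higher were 3, 3, 4 and 5, where 12.9%, 17%, 14.5% and 17.4% of all genes were, and the medians were -0.09, -0.19, -0.13 and -0.13. Of the 6 partners in complex III 2, 3, 1 and 3 were lower past the threshold, with medians of -0.33, -0.20, -0.25 and -0.37. COPII coat genes, partners of SEC13, had medians of 0.21, -0.05, 0.19 and 0.17 over 7 genes, while SEC13 itself was at -0.44, -0.41, -0.40 and -0.65. The 8 PBAF subunits of other chromosomes had medians of -0.05, -0.08, -0.11 and -0.13.

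Not every gene followed. Of the 337 genes 227 were below Non-target in all 4 clones (22.2% of all genes were), 71 were at or above it in 1 clone, 11 in 2, 14 in 3 and 14 in all 4 (21.6% of all genes were). At or above Non-target were 32, 47, 41 and 71 genes in the 4 clones. The 14 genes that followed in no clone were LMCD1, TTLL3, IL17RC, PRRT3, IRAK2, TRIM71, PLXNB1, INKA1, HEMK1, RAD54L2, ABHD14B, IL17RB, EOGT and EBLN2. They did not lie in 1 block, and most lay in 2 stretches. The second of these lies where 3p genes are dense. Of the 337 genes, 96 start between 40 and 50 Mb and 81 between 50 and 60 Mb, so nothing is read from the grouping. TTLL3, IL17RC, PRRT3 and IRAK2 start within 9808086 to 10164865. PLXNB1, INKA1, HEMK1, RAD54L2, ABHD14B and IL17RB start within 48403854 to 53846580. Apart from these stretches start LMCD1, TRIM71 (32818018), EOGT (68975214) and EBLN2 (73061659). VHL starts at 10141008 beside IRAK2. RefSeq windows matched 12 of the 14, with a median of 23.5 CG, and 200 of the 227 followers, with a median of 29.

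ABHD14B, a hydrolase gene, was the most abundant of the 14, at 9.39 to 11.9 FPKM in Non-target. It was at 19.8 to 20.9 FPKM in MAGI2-CKO, 15.7 to 18.2 FPKM in MLPH-CKO, 12.1 to 13.1 FPKM in C9orf89-CKO and 10.9 to 11.1 FPKM in RHBDD2-CKO. ABHD14A, which lies within the same bases on the other strand, was at -0.79, -0.12, -0.65 and -0.45 on the log2 scale. IL17RB, a receptor of interleukin 17 family cytokines, was at 3.95 to 4.35 FPKM in Non-target and 5.51 to 7.42 FPKM in MAGI2-CKO, 5.59 to 5.68 FPKM in C9orf89-CKO, 4.52 to 5.19 FPKM in MLPH-CKO and 4.04 to 4.71 FPKM in RHBDD2-CKO. IRAK2, a kinase of interleukin 1 receptor signalling, was at 1.65 to 1.98 FPKM in Non-target, 3.55 to 4.94 FPKM in C9orf89-CKO and 1.55 to 2.23 FPKM in RHBDD2-CKO.

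TRIM71, a translational repressor of embryonic cells, was at 1.95 to 2.79 FPKM in Non-target and 2.15 to 2.88 FPKM in 3 clones, and these overlapped. C9orf89-CKO stood above, at 4.63, 4.07 and 4.10 FPKM. It was higher than the MAGI2, MLPH and RHBDD2 clones by 0.68, 0.61 and 0.85 on the log2 scale (SE 0.12 each, limma adjusted p = 0.00156, 0.00528 and 0.000194). TRIM71 was named because it passed the threshold in these comparisons, so nothing is read from the p-values. RAD54L2, a chromatin helicase gene, was at 4.83 to 6.83 FPKM in Non-target and overlapped with it in 3 clones, at 5.22 to 7.21 FPKM, while RHBDD2-CKO lay above, at 7.11 to 8.29 FPKM. PLXNB1, a semaphorin receptor gene, was at 1.13 to 1.35 FPKM in Non-target and highest in RHBDD2-CKO, at 1.83 to 2.37 FPKM. LMCD1, INKA1 and EBLN2 had means under 1 FPKM, and EBLN2 ranged from 0.164 to 0.594 FPKM over all libraries.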

How the data were processed

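RNA of 15 HEK293T libraries, 3 wells in each of 5 groups, was sequenced with a poly(A) library kit. The submitters' processing notes name HISAT2 2.0.5, featureCounts 1.5.0-p3 and DESeq2. The genome build and the strand setting are not given in the sources used here. The authors deposited 1 value per gene and library, taken as FPKM from the values themselves. Multiplied by the summed length of a gene's merged exons (GENCODE 29), 100% of the deposited FPKM values of a library were whole multiples of its smallest step, within 0.05 of a fragment. All 58735 gene IDs matched, and fragments were recovered from the steps (median 17666063 per library). No interval for counting error is given, and the SE values are those of the limma fit, from the spread between wells.

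Genes that reached 0.5 FPKM in 3 or more libraries, 16175 in all, entered a linear model on log2(FPKM + 0.1) in limma 3.58.1 under R 4.3.3. The model held 1 mean per group, eBayes with a trend, and Benjamini-Hochberg adjustment within each comparison at 0.05. The pseudocount understates the change of low genes, and p-values measure only the spread between wells of 1 clone. The members and gene lists were chosen with earlier results of these data known. Named genes were the 8 most lowered with all clone libraries below Non-target and a mean of at least 1 FPKM (the same rule upwards named 0), 13 known genes, genes at the edges of the stretch, the 6 most abundant and, per clone, 2 that differed from each other clone. Others are marked as chosen after their values were seen. Alternatives changed the pseudocount, filter, normalization, trend, window, limit, replicate block and libraries. Some genes covered by these rules are not reported here.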

Additional observations from a re-analysis of the deposited data

Results flagged for a closer look

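Between clones, 8 genes of 3p were named because 1 clone differed from each of the 3 others past the threshold in limma with Benjamini-Hochberg adjustment. The mean log2 difference of C9orf89-CKO to the other clones was 0.86 for RARB and 0.71 for TRIM71. That of MAGI2-CKO was -1.68 for PROK2 and -1.57 for SATB1. That of MLPH-CKO was 0.68 for HACL1 and 0.45 for QARS. That of RHBDD2-CKO was -3.56 for C3orf18 and -3.50 for TGFBR2. The libraries of the named clone lay outside the range of the other clones in each of the 8 genes. In RARB the margin was narrowest beside MLPH-CKO, with 3.31 to 3.88 FPKM in C9orf89-CKO against 2.70 to 3.11 FPKM in MLPH-CKO. The log2 difference of C9orf89-CKO was 1.76 to MAGI2-CKO but 0.32 to MLPH-CKO. The latter was no longer past the threshold without C9orf89-CKO replicate 2 or 3 or MLPH-CKO replicate 1 or 2 (limma adjusted p = 0.0700, 0.101, 0.0824 and 0.0789).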

How the results depend on the processing

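The median log2 differences of the 3p genes to Non-target stayed below 0 in all 4 clones under every alternative. With a pseudocount of 1 they were -0.30, -0.31, -0.28 and -0.21 in the order used above. With quantile normalization those of the MAGI2, MLPH and RHBDD2 clones were -0.35, -0.31 and -0.22, and the median of MLPH-CKO minus RHBDD2-CKO was -0.0705. Centred on protein-coding genes outside chromosome 3 they were -0.40 in C9orf89-CKO and -0.27 in RHBDD2-CKO. Centred in the same way, the medians were -0.0544 for C9orf89-CKO minus MAGI2-CKO, -0.0634 for C9orf89-CKO minus MLPH-CKO, -0.0582 for MAGI2-CKO minus RHBDD2-CKO and -0.0283 for MLPH-CKO minus RHBDD2-CKO. The causes of these shifts were not tested.

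Counts between clones moved more. Libraries of the same number tended to deviate together, though the correlations were small (30 pairs, median r 0.0856, lowest 0.00103, 12 over 0.1, against a median r of -0.0887 and 2 of 60 over 0.1 for libraries of different numbers). All 30 were above 0, and 11 of 15 libraries correlated best with one of their own number, a hint from the data and not the design. Not every pair exceeded 0.1, a limit set by choice, so the numbers were not taken to pair the samples. The main fit has no block, so variation shared by libraries of the same number stays in its estimate of the spread. With the replicate number as a block, 108 genes in place of 67 passed between C9orf89-CKO and MAGI2-CKO and 77 in place of 38 between C9orf89-CKO and MLPH-CKO. With only the libraries numbered 2 and 3 the first count was 110, and the median of MAGI2-CKO minus RHBDD2-CKO was -0.0724. With only the 6 libraries compared, 17 passed between C9orf89-CKO and MLPH-CKO and 40 in place of 62 between MAGI2-CKO and MLPH-CKO. In that fit RARB (0.32, adjusted p = 0.108) and HACL1 (-0.63, adjusted p = 0.0614), as C9orf89-CKO minus MLPH-CKO, were no longer past the threshold.

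The end of the stretch in MLPH-CKO was at 119.499 Mb with a window of 15 genes, 120.325 Mb with 51 genes, 119.294 Mb with a limit of -0.2 or the libraries numbered 2 and 3, and 119.212 Mb with a pseudocount of 1. That in MAGI2-CKO was at 119.499 Mb with 51 genes, and that in RHBDD2-CKO at 81.5 Mb with 15 genes. Lowered windows in RHBDD2-CKO were 86.1% with 15 genes, 81.5% with a limit of -0.2, 93.8% with a pseudocount of 1 and 94.2% with the libraries numbered 2 and 3, and in MAGI2-CKO 85.5% with a limit of -0.2.

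Leaving out each library in turn gave medians of -0.37 to -0.35 for the MAGI2 clone, -0.34 to -0.31 for the MLPH clone and -0.27 to -0.25 for the RHBDD2 clone. Between C9orf89-CKO and MLPH-CKO 21 to 39 genes passed, 21 without C9orf89-CKO replicate 3, 22 without replicate 2 and 25 without MLPH-CKO replicate 2. Between MAGI2-CKO and MLPH-CKO 41 to 65 passed, with 41 without MAGI2-CKO replicate 2. Lowered windows were 86.5% to 96.3% in MAGI2-CKO and 89.5% to 96.6% in RHBDD2-CKO, and the stretch ended at 119.294 to 120.596 Mb in MLPH-CKO and at 113.211 to 119.499 Mb in C9orf89-CKO, lowest without Non-target replicate 1.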
